A study of Mus musculus with 27 samples.

Results

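Resident alveolar macrophages taken 9 days after lipopolysaccharide (LPS) were compared with resident alveolar macrophages of untreated mice, in 6 of the 27 libraries of a study of macrophages in acute lung injury. The members are the genes that passed a filter on low counts, 13599 of the 38124 in the table. The day 9 group was 3 libraries from C57B/6 mice aged 8 to 14 weeks that had received 20 ng of LPS, a component of the outer membrane of Gram-negative bacteria, in 50 µL of saline into the trachea. The day 0 group was 3 libraries from mice of that strain and age range that the labels give as untreated controls, so the labels name no saline instillation for them. Both groups were washed out of the airspaces by lavage and sorted as CD11c+CD11b- cells. The same study also holds resident libraries from days 3, 6 and 12 and recruited, CD11c-CD11b+ libraries from days 3 to 12, each in groups of 3. Whether the 3 libraries of a group are 3 animals or pools is not in the labels, so p-values measure the spread between these libraries, which may be technical. Sorting by surface markers does not trace cells, and a recruited cell that had acquired the resident markers by day 9 would have been sorted as resident.

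Alveolar macrophages live on the inner surface of the air sacs, where they clear inhaled particles and surfactant lipid, and they depend on the growth factor GM-CSF and the nuclear receptor PPARγ. They renew themselves locally by division. After LPS they sense the stimulus through the receptor TLR4, and they are joined by macrophages that differentiate from blood monocytes and mostly disappear as the inflammation resolves.

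The libraries held 15346322 to 17239961 gene counts at day 9 and 12079093 to 14914302 at day 0, and levels below are in CPM, counts scaled by TMM to a common library size. The sorted identity was checked on its marker genes. Siglecf, a sialic acid-binding lectin typical of these cells, was at 566, 335 and 622 CPM in the day 9 libraries, against 325, 503 and 484 CPM at day 0, and the groups overlapped. Itgax, which encodes CD11c, was at 2095, 1766 and 2350 CPM at day 9 and at 1699, 1896 and 1856 CPM at day 0, while Itgam, which encodes CD11b, was at 9.08, 43.7 and 10.2 CPM at day 9 and at 10.3, 5.06 and 5.35 CPM at day 0. Of 42 alveolar macrophage identity genes tested, 1 passed as higher at day 9 and none as lower, with a median log2 difference of 0.22. The granulocyte genes Ly6g and Epx had no count in any of the 6 libraries, but other genes of the neutrophil list were present. The summed level of that list was 265 to 384 CPM at day 9 and 279 to 316 CPM at day 0. Of its 17 tested genes, 8 differences were positive and 8 negative. S100a8 was at 6.81, 58.2 and 7.72 CPM at day 9 and at 6.17, 1.46 and 2.33 CPM at day 0.

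Some libraries stood apart from the others of their group. Replicate 2 of day 9 had a summed level of 30 marker genes of monocyte-derived macrophages of 6027 CPM, against 2468 and 2242 CPM in the other day 9 libraries, 1310 to 1533 CPM at day 0 and 14787 to 47783 CPM in recruited cells of day 9. Its Spp1 (osteopontin) was at 3564 CPM, where the other day 9 libraries had 354 and 374 CPM and the day 0 libraries 268, 303 and 306 CPM. C1qa, a complement gene of monocyte-derived macrophages, was at 5.71 CPM in it, against 0.630 and 1.10 CPM in the other day 9 libraries, 1.29, 0.306 and 0.0629 CPM at day 0 and a mean of 637 ± 773 CPM in recruited day 9 cells (SD, n = 3). The part of recruited cells in this library was not tested. Replicate 1 of day 0 had a summed level of redox defence genes of 18388 CPM, against 11063 and 11185 CPM in the other day 0 libraries and 10597 to 12363 CPM at day 9. Replicate 3 of day 9 carried globin RNA, with Hbb-bs at 73.7 CPM against 0 and 4.64 CPM in the other day 9 libraries and 0.69 to 1.41 CPM at day 0. The part of these libraries in the results below is given by the values without them.

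At day 9, 474 of the 13599 genes tested (3.49%) differed from day 0 by edgeR's quasi-likelihood test at a Benjamini-Hochberg adjusted p under 0.05, 219 of them higher (1.61%) and 255 lower (1.88%). Of the 474, 467 had 3 day 9 libraries entirely above or below the 3 day 0 libraries, a separation found in 21% of all genes tested. The median log2 difference was 1.11 over the higher genes and -1.13 over the lower ones. At least 2-fold changes were seen in 117 higher and 146 lower genes, and at least 4-fold changes in 65 higher and 30 lower genes. The median log2 difference over all genes tested was 0.02. Without day 9 replicate 2, 113 genes were higher and 292 lower, and without day 0 replicate 1, 100 were higher and 67 lower. Leaving out day 9 replicate 1 gave 191 higher and 103 lower, and leaving out day 9 replicate 3 gave 141 and 75. Without day 0 replicate 2 there were 133 and 201, and without day 0 replicate 3 there were 114 and 193. With the library sizes alone as the scale, 175 were higher and 457 lower, a split further towards lower genes. Of 79 genes that passed and were picked by the naming rule or after their values were seen, 30 passed in each of the 6 fits that left out 1 library of either group. The 19 higher ones were Angptl4, C2, C3, Ccdc80, Csf1r, Egfem1, Fn1, Gbp3, Gm4951, Gpr35, H2-K1, H2-M3, Hopx, Igf2r, Mmp14, Ncf1, Pmp22, S100a6 and Tnip1, and the 11 lower ones were Acap1, Cdc6, Cit, Cxcl10, Cxcr1, Gclc, Knstrn, Mad2l1, Mcm2, Pcna and Tcf19. The other 49 lost the call in at least 1 of these fits, 44 of them without day 0 replicate 1, 20 without day 0 replicate 2, 22 without day 0 replicate 3, and 27, 21 and 30 without day 9 replicates 1, 2 and 3.

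**Figure D1:**
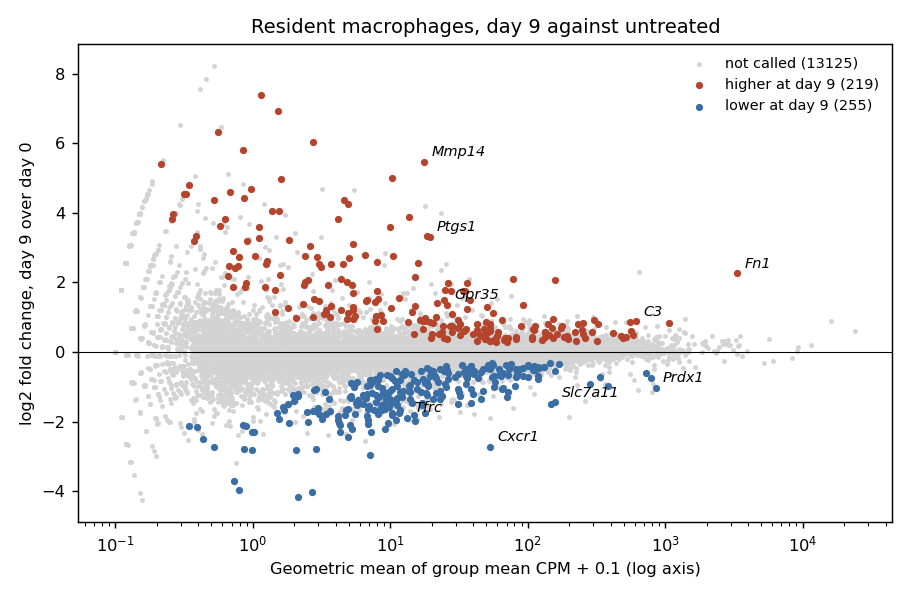
Each point is 1 of the 13599 genes tested, with the geometric mean of the group mean levels (CPM + 0.1, log axis) across and the log2 fold change of day 9 over day 0 up the page. The 219 higher genes (red) hold the largest called changes, and the 255 lower ones (blue) lie mostly between 1 and 100 CPM on the horizontal axis.

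Cell division genes made up the lists with the most calls. Of 40 tested genes of DNA replication and S phase, 25 were lower at day 9 and none higher, with a median log2 difference of -1.13, and all 40 differences were negative. Of 44 tested genes of mitosis and cytokinesis, 11 were lower and none higher, with a median of -1.45 and all 44 differences negative, against a median of 0.02 and 1.88% lower calls over all genes. The summed level of the S phase genes was 641, 1014 and 749.8 CPM in the day 9 libraries, against 1861, 1408 and 1397 CPM at day 0. The summed level of the mitosis genes was 429.9, 1073 and 507 CPM at day 9 and 1807, 1490 and 1508 CPM at day 0. In both sums day 9 replicate 2 lay nearest to the untreated libraries, and the groups did not overlap. Without day 9 replicate 2, 30 of the S phase genes passed, without day 0 replicate 1, 8 did, and without day 9 replicate 1 or 3, 9 did each time.

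Among the replication genes, Mcm2, a subunit of the helicase that opens DNA for copying, was at 23.7, 41.6 and 30.5 CPM at day 9, against 89.5, 65.9 and 54.2 CPM at day 0. It fell by 1.13 ± 0.22 on the log2 scale (SE, edgeR adjusted p = 0.00497). Pcna, the sliding clamp of the DNA polymerases, was at 84.9, 98.8 and 89.5 CPM at day 9 and at 192, 133 and 144 CPM at day 0, and also passed (log2 -0.78, edgeR adjusted p = 0.00332). Every day 9 library was below every day 0 library for both genes. Mcm10, a replication initiation factor, fell by 1.76 (edgeR adjusted p = 0.0107), and Ccne2, which encodes cyclin E2, by 2.07 (edgeR adjusted p = 0.0163). Both lost the call without day 0 replicate 1 and without day 9 replicate 1 or 3. Tcf19, a growth-regulated transcription factor gene outside the list, fell by 1.99 (edgeR adjusted p = 0.00361).

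Among the genes of mitosis, Mki67 (chr7:135689784-135716361, minus strand), which encodes the Ki-67 proliferation marker, was at 47.2, 154 and 62.0 CPM at day 9, against 283, 233 and 219 CPM at day 0. It fell by 1.48 ± 0.40 on the log2 scale (SE, edgeR adjusted p = 0.0433), and by 2.18 without day 9 replicate 2 (edgeR adjusted p = 0.00435). Its call was lost without day 9 replicate 1 or 3, and without any 1 of the day 0 replicates 1, 2 and 3. Racgap1, part of the centralspindlin complex that directs cytokinesis, was at 10.6, 31.7 and 13.4 CPM at day 9 and at 58.0, 44.3 and 53.1 CPM at day 0. It fell by 1.48 ± 0.35 (edgeR adjusted p = 0.0214), and its day 9 libraries also lay wholly below. The Racgap1 call was lost without day 9 replicate 1 or 3 and without day 0 replicate 1 or 3. The microtubule regulator Stmn1 fell by 1.54 (edgeR adjusted p = 0.0098), and lost the call without day 9 replicate 1 or 3. The spindle checkpoint gene Mad2l1 fell by 1.46 (edgeR adjusted p = 0.00402) and the citron kinase gene Cit, which acts in cytokinesis, by 1.76 (edgeR adjusted p = 0.00251). The mitotic kinase gene Cdk1, at 5.80, 21 and 6.85 CPM at day 9 and 34.9, 26.9 and 25 CPM at day 0, and the topoisomerase gene Top2a did not pass (edgeR adjusted p = 0.175 and 0.152). Without day 9 replicate 2, 26 of the 44 mitosis genes passed, and without day 0 replicate 1, 2 did. Without day 9 replicate 1 or 3, 2 and 1 passed. All 44 differences were negative in each of these fits.

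**Figure D2:**
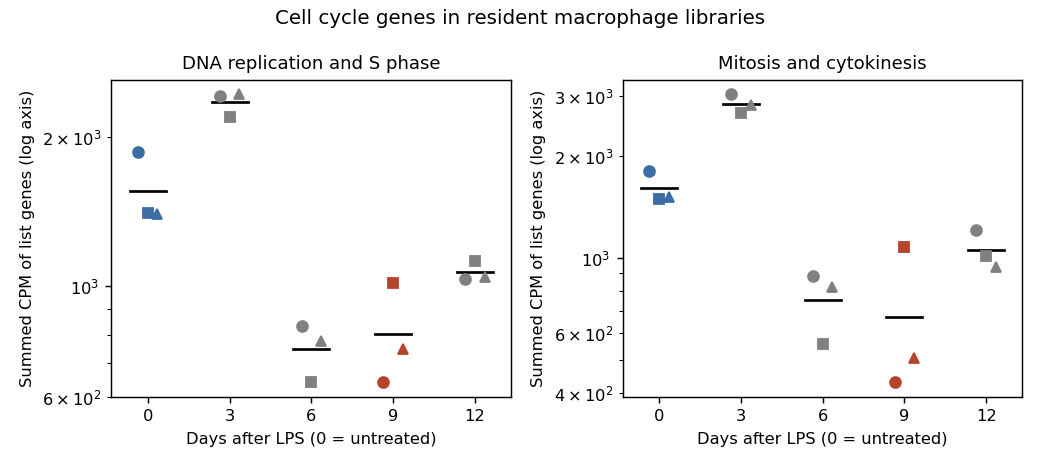
Summed CPM (log axis) of the tested DNA replication genes (left) and mitosis genes (right) in each resident library by day after LPS, with circles, squares and triangles for replicates 1, 2 and 3 and a line at the group mean. The day 9 points (red) lie below all day 0 points (blue), the day 3 points lie above them, and replicate 2 is the highest day 9 point.

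Promoters of genes of this kind often carry sites of the E2F factors or, in mitosis genes, of the complexes that bind the CHR element and CCAAT boxes. In RefSeq promoter windows of GRCm38.p6, the 250 bases before the start were searched on both strands. An E2F core, TTTCCCGC or TTTGGCGC, was in 6 of the 21 windows found for the 25 lowered S phase genes (28.6%), against 1.51% of 27025 genes. Among the 11 lowered mitosis genes, 9 had a window, and 5 of these held CCAAT (55.6%, against 37.5% of all genes) and 1 held TTTGAA (11.1%, against 18.3%). Over all tested genes the E2F core was in 6 of 33 S phase windows (18.2%), CCAAT in 27 of 37 mitosis windows (73%) and TTTGAA in 11 of 37 (29.7%). Shown are the 150 bases before the start of 2 lowered genes of each list, with the motifs searched for that list in capitals. Dtl encodes an adaptor of a ubiquitin ligase active in S phase (chr1:191575545-191575694, minus strand), and Cdc6 a licensing factor of replication origins (chr11:98908001-98908150, plus strand, with its match on the other strand). Mki67 (chr7:135716380-135716529, minus strand) holds CCAAT and TTTGAA, and Racgap1 (chr15:99651657-99651806, minus strand) holds CCAAT on the other strand. A motif is a match of letters, not a measured binding site.
Dtl: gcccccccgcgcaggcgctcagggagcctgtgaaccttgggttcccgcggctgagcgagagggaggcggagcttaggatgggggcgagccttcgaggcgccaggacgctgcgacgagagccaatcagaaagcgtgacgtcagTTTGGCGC
Cdc6: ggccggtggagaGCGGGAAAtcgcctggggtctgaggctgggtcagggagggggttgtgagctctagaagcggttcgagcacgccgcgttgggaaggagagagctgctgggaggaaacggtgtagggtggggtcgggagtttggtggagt
Mki67: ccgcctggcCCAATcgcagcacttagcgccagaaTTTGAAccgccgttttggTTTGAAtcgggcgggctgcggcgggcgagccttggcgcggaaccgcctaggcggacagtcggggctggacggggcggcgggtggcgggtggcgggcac
Racgap1: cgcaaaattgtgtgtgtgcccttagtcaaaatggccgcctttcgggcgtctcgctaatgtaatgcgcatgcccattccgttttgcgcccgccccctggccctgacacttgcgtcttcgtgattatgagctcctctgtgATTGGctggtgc
Dtl was at 2.52, 6.30 and 3.78 CPM at day 9, against 16.9, 13.1 and 9.94 CPM at day 0 (log2 -1.67, edgeR adjusted p = 0.0415). Its call was lost without day 9 replicate 1 or 3, and without any 1 of the day 0 replicates 1, 2 and 3. Cdc6 was at 3.34, 8.09 and 5.34 CPM at day 9 and at 21, 15.3 and 14 CPM at day 0 (log2 -1.59, edgeR adjusted p = 0.00573).

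Redox defence genes, many of them targets of the oxidant-sensing factor NRF2, were the other group with several lower members. Of 32 tested, 7 were lower at day 9 (21.9%, against 1.88% of all genes) and 1 was higher (3.12%, against 1.61%). The list's median log2 difference was -0.20. Gclc, the catalytic subunit of the enzyme that starts glutathione synthesis, was at 45.3, 47.2 and 42.9 CPM at day 9, against 90.4, 62.4 and 63.4 CPM at day 0. It fell by 0.68 ± 0.12 on the log2 scale (SE, edgeR adjusted p = 0.00251), with no overlap. Prdx1, a peroxide-reducing enzyme, was at 613, 668 and 505 CPM at day 9 and at 1862, 908 and 883 CPM at day 0 (log2 -1.03, edgeR adjusted p = 0.0464). Slc7a11, the cystine importer, was at 81.1, 150 and 56.7 CPM at day 9 and at 479, 164 and 139 CPM at day 0 (log2 -1.44, edgeR adjusted p = 0.046), and its groups overlapped. Day 0 replicate 1 was the highest library for each of these genes. Txnrd1 (thioredoxin reductase), Cat (catalase), Nqo1 (a quinone reductase) and Gstm1 (a glutathione transferase) fell by 0.93, 0.72, 1.97 and 0.96 (edgeR adjusted p = 0.02, 0.0317, 0.0481 and 0.0106). Without day 0 replicate 1, only 1 of the 7 passed, Gclc (log2 -0.48, edgeR adjusted p = 0.0197), and the other 6 had negative differences. The list's median was then 0.01, with 16 negative and 16 positive differences. Without day 9 replicate 1 or 3, 2 passed each time. The member that rose was Ncf1, a cytosolic subunit of the superoxide-producing NADPH oxidase, at 574, 793 and 714 CPM at day 9, against 455, 455 and 453 CPM at day 0 (log2 0.61, edgeR adjusted p = 0.00413).

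An antioxidant response element core, TGACNNNGC, the motif that NRF2 complexes are known to bind, was in 2 of the 7 promoter windows found for the 8 redox genes that changed (28.6%), against 11.5% of all genes. Both are shown, Prdx1 (chr4:116685449-116685598, plus strand) and Txnrd1 (chr10:82859056-82859205, plus strand), with the match in capitals on the strand opposite to the one written.
Prdx1: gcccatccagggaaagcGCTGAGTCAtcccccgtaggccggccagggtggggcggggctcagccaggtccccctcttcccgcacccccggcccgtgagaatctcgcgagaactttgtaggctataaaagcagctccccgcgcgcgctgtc
Txnrd1: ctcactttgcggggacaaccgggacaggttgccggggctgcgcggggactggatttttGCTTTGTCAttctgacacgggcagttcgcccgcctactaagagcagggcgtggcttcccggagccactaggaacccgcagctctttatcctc
Over all tested redox genes the motif was in 7 of 26 windows (26.9%), a share close to that of the changed genes. This motif was chosen after the values were seen.

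Other lowered genes lay outside these groups. Cxcr1, which encodes a chemokine receptor, was at 27.1, 17 and 17.5 CPM at day 9, against 241, 77.5 and 90.2 CPM at day 0. It fell by 2.73 ± 0.39 on the log2 scale (SE, edgeR adjusted p = 0.000533), and by 2.03 without day 0 replicate 1 (edgeR adjusted p = 0.00222). Tfrc, the transferrin receptor that takes up iron, was at 7, 8.43 and 5.17 CPM at day 9 and at 29.4, 24.0 and 22.8 CPM at day 0 (log2 -1.89 ± 0.40, edgeR adjusted p = 0.0104, and 0.0547 without day 0 replicate 1). Acap1, which acts in the recycling of endosomes, was at 11.2, 2.99 and 9.64 CPM at day 9 and at 25.3, 28.8 and 29.3 CPM at day 0 (log2 -1.81 ± 0.35, edgeR adjusted p = 0.0054). The groups were apart for all 3 genes. Of 20 iron handling genes, 2 were lower (10%, against 1.88% of all genes) and 1 was higher (5%, against 1.61%). The lower ones were Tfrc and Spic, the transcription factor gene of iron-recycling macrophages (log2 -2.81, edgeR adjusted p = 0.0358). The higher one was the iron-siderophore binder Lcn2 (log2 4.98, edgeR adjusted p = 0.0223), at 0.82, 16.8 and 4.70 CPM at day 9 and 0.193, 0.46 and 0.0629 CPM at day 0. Cd36, a fatty acid and lipoprotein receptor, was at 115, 93.7 and 101 CPM at day 9, against 453, 336 and 350 CPM at day 0, and narrowly missed the threshold (log2 -1.88, edgeR adjusted p = 0.0508).

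**Figure D3:**
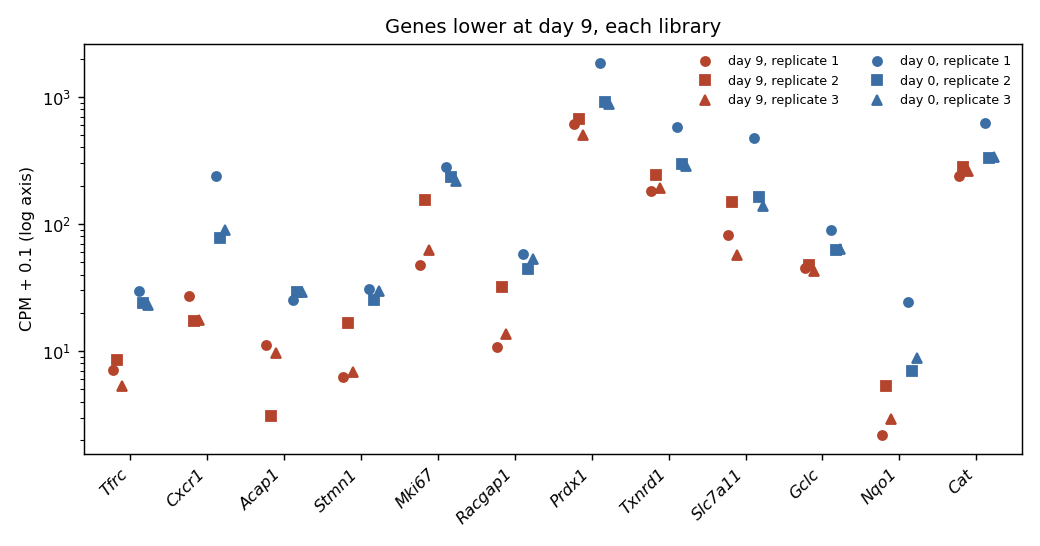
CPM + 0.1 (log axis) of 12 lowered genes in each day 9 library (red, left of each pair) and day 0 library (blue, right), with circles, squares and triangles for replicates 1, 2 and 3. Slc7a11 is the 1 gene of the 12 whose groups overlap, and day 0 replicate 1 is the highest point for the 6 redox genes on the right.

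Among genes of at least 20 CPM that passed with the groups apart, the largest rise was in Mmp14 (chr14:54431612-54445364, plus strand). This gene encodes a membrane-anchored collagenase. It was at 67.8, 216 and 64.4 CPM at day 9, against 4.56, 1.92 and 1.26 CPM at day 0. The log2 difference was 5.48 ± 0.62 (SE, edgeR adjusted p = 4.92e-05), and 4.66 without day 9 replicate 2 (edgeR adjusted p = 9.81e-05). Fn1, the matrix protein fibronectin, was at 4425, 11536 and 6037 CPM at day 9 and at 1191, 1956 and 1417 CPM at day 0 (log2 2.27 ± 0.34, edgeR adjusted p = 0.000609). Both genes had their day 9 libraries wholly above day 0, with replicate 2 the highest. They were the 2 of 40 matrix and repair genes that passed (5% higher, against 1.61% of all genes), with none lower and a median of 0.44. Ccdc80, which encodes a secreted matrix-associated protein, was at 223, 502 and 246 CPM at day 9 and at 49, 92.7 and 88.3 CPM at day 0 (log2 2.08, edgeR adjusted p = 0.00413).

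Several other genes rose. Gpr35, which encodes a G protein-coupled receptor, was at 31.8, 41.5 and 50.7 CPM at day 9, against 17.3, 17.1 and 14.0 CPM at day 0. Its log2 difference of 1.36 ± 0.15 (SE, edgeR adjusted p = 2.39e-05) ranged from 1.18 to 1.52 over 17 alternatives and passed in each. Csf1r, the receptor for macrophage colony-stimulating factor, was at 695, 804 and 757 CPM at day 9 and at 373, 445 and 416 CPM at day 0 (log2 0.87 ± 0.12, edgeR adjusted p = 0.00045). Igf2r, which carries lysosomal enzymes and binds the growth factor IGF2, was at 18.4, 129 and 21.6 CPM at day 9 and at 3.6, 0.996 and 0.629 CPM at day 0 (log2 4.99 ± 0.95, edgeR adjusted p = 0.00581). The day 9 libraries lay wholly above day 0 for these genes, and Igf2r was several times higher in replicate 2 than in the others. S100a6, a calcium-binding protein gene, rose by 2.59 (edgeR adjusted p = 7.53e-05) and the homeodomain cofactor gene Hopx by 2.00 (edgeR adjusted p = 0.000947), and both passed without day 9 replicate 2 and without day 0 replicate 1. These are members of the monocyte and epithelium marker lists. Of 21 monocyte marker genes 2 were higher (median 1.12), of 29 monocyte-derived macrophage genes 3 (median 0.87) and of 15 epithelial genes 2 (median 0.98), none was lower, and the share of higher genes over all those tested was 1.61%. The summed level of the monocyte markers was 22498 to 38959.6 CPM at day 9 and 12376 to 14269 CPM at day 0, without overlap. In recruited cells of day 9 it was 16616 to 25656 CPM, not above the resident day 9 range. The epithelial markers summed to 228 to 308 CPM at day 9, 153 to 209 CPM at day 0 and 425 to 691 CPM in recruited cells of day 9. Tppp3 made up most of the epithelial sum, at 191, 198 and 192 CPM at day 9 and 122, 179 and 190 CPM at day 0. Chil3 made up most of the monocyte sum, at 17885, 26845 and 21132 CPM at day 9 and 10913, 12134 and 12267 CPM at day 0. It is also on the list of alveolar macrophage identity genes, so this sum is not particular to monocytes. The part of other cells in the raised genes was not tested.

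Several raised genes had a smaller difference without day 9 replicate 2. Ptgs1, which encodes the prostaglandin synthase COX-1, was at 8.95, 156 and 16.6 CPM at day 9, against 6.30, 5.98 and 5.91 CPM at day 0. Its log2 difference was 3.32 (edgeR adjusted p = 0.0391), and 1.06 without that library (edgeR adjusted p = 0.537). Without it Cav1 (caveolin) differed by 0.98 in place of 2.09, Pdpn (podoplanin) by 1.67 in place of 2.56 and Crip1, a LIM protein gene, by 0.95 in place of 2.00, and none of these passed. Fam20c, a secretory pathway kinase gene, the creatine transporter gene Slc6a8 and Lcn2 also lost their calls. The genes Sash1, Pmp22, Egfem1 and Igf2r still passed (log2 2.30, 3.28, 2.37 and 3.49 without it). Recruited cells of day 9 had higher means than resident cells for Mmp14 (525 ± 231 CPM), Igf2r (373 ± 231 CPM), Sash1 (296 ± 173 CPM) and Pmp22 (134 ± 63.1 CPM, SD, n = 3 each). Their means were also higher for Fn1 (16169 against 7333 CPM), S100a6 (333 against 19.2), Hopx (77.3 against 9.52) and Pdpn (162 against 38.3). For the raised genes C3 (779 against 833 CPM) and C2 (1.17 against 2.80 CPM) their means were lower. The part of such cells in these rises was not tested. In sorted bulk samples, more cells of a type and more RNA per cell cannot be told apart.

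**Figure D4:**
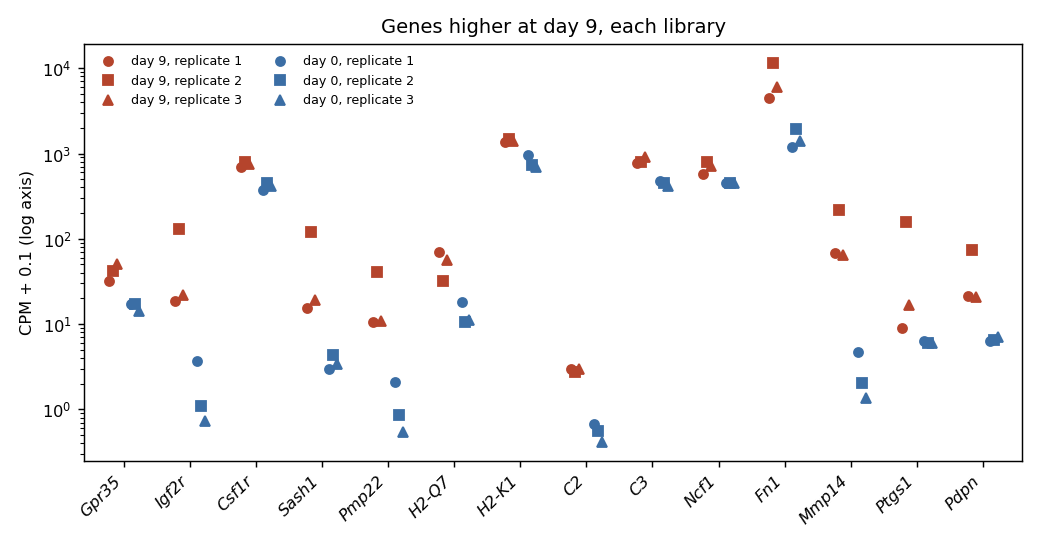
CPM + 0.1 (log axis) of 14 raised genes in each day 9 library (red, left of each pair) and day 0 library (blue, right), with circles, squares and triangles for replicates 1, 2 and 3. The groups are apart for every gene shown, and the day 9 square, replicate 2, lies well above the other day 9 points for Igf2r, Sash1, Pmp22, Mmp14, Ptgs1 and Pdpn.

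Genes of antigen display on class I molecules, which present peptides from inside the cell, were partly raised. Of 21 tested, 5 were higher at day 9 (23.8%, against 1.61% of all genes) and none lower, with a median of 0.32. H2-K1, a classical class I heavy chain gene, was at 1369, 1496 and 1393 CPM at day 9, against 968, 727 and 698 CPM at day 0 (log2 0.83 ± 0.17, edgeR adjusted p = 0.0059). Nlrc5, the transactivator of class I genes, was at 44.1, 45.5 and 33.4 CPM at day 9 and at 22, 20.2 and 14.9 CPM at day 0 (log2 1.11 ± 0.23, edgeR adjusted p = 0.00963). The nonclassical gene H2-M3 was at 36.0, 37.6 and 35.0 CPM at day 9 and at 23.8, 20.1 and 20.4 CPM at day 0 (log2 0.75 ± 0.12, edgeR adjusted p = 0.00123). The day 9 libraries lay wholly above day 0 for these 3 genes. H2-Q7 and H2-Q6, nonclassical genes with near-identical copies whose reads may be split between them, were higher by 1.99 and 1.75 (edgeR adjusted p = 0.0204 and 0.039). Without day 0 replicate 3, 2 of the 5 passed, and without day 0 replicate 2 or day 9 replicate 1 or 3, 3 did each time. No class II or costimulation gene of 21 passed (median 0.34). H2-Ab1 was at 511, 372 and 385 CPM at day 9, against 239, 176 and 211 CPM at day 0 (log2 1.02, edgeR adjusted p = 0.21), apart in level but not past the test.

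Of 19 complement genes, 3 were higher at day 9 (15.8%, against 1.61% of all genes) and none lower. The median was 1.59, and all 19 differences were positive. C3, the central component, was at 779, 799 and 920 CPM at day 9, against 475, 451 and 421 CPM at day 0 (log2 0.89 ± 0.18, edgeR adjusted p = 0.0059). C1ra, a protease of the C1 complex, was at 53.4, 80.7 and 67.5 CPM at day 9 and at 25.8, 44.2 and 40.5 CPM at day 0 (log2 0.87 ± 0.18, edgeR adjusted p = 0.00909), and without day 9 replicate 2 its adjusted p was 0.0522. C2, a component of the classical pathway convertase, was at 2.84, 2.65 and 2.9 CPM at day 9 and at 0.578, 0.46 and 0.315 CPM at day 0 (log2 2.61 ± 0.40, edgeR adjusted p = 0.000667). All 3 were apart between the groups. The exons of C2 overlap those of Gm20547 and Zbtb12, so its reads are not certain to be its own.

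Among 28 genes induced by interferon gamma, 3 were higher (10.7%, against 1.61% of all genes) and 1 lower (3.57%, against 1.88%), with a median of 0.50. The guanylate-binding protein gene Gbp3 was at 15.8, 16.6 and 14.3 CPM at day 9, against 7.58, 4.98 and 6.92 CPM at day 0 (log2 1.25, edgeR adjusted p = 0.00332). Serpina3g and Gm4951 were also higher, from day 0 levels under 1 CPM (log2 4.44 and 4.06, edgeR adjusted p = 0.00909 and 0.000329), and both have close relatives with which reads may be shared. Cxcl10, a chemokine that attracts T cells, was instead at 1.07, 0.995 and 1.05 CPM at day 9 and at 9.58, 6.59 and 5.47 CPM at day 0 (log2 -2.79, edgeR adjusted p = 0.00203). Of 44 genes stimulated by type I interferon, 1 was lower, Slfn9 (2.27%, against 1.88% of all genes), and none higher (median -0.19).

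Of 22 chemokine genes tested, 2 were lower (9.09%, against 1.88% of all genes), Cxcl10 and Ccl3, which encodes the chemokine MIP-1α (log2 -1.76, edgeR adjusted p = 0.049). Ccl3 lost the call in each of the 6 fits that left out 1 library of either group, and Cxcl10 kept it in each. Of 33 inflammatory mediators, 1 was higher, Lcn2 (3.03%, against 1.61% of all genes). The cytokine gene Il1b was at 24.8, 45.6 and 43.7 CPM at day 9 and at 8.23, 16.2 and 10.8 CPM at day 0 (log2 1.70, edgeR adjusted p = 0.0914). Tnf was at 15.1, 11.3 and 5.69 CPM at day 9 and at 36.7, 26.7 and 33.1 CPM at day 0 (log2 -1.59, edgeR adjusted p = 0.217). Neither passed, although in both the groups were apart. Of 42 genes of LPS sensing and feedback, 2 were higher (4.76%, against 1.61% of all genes). They were the inhibitors of TLR signalling Irak3 (log2 0.66, edgeR adjusted p = 0.0126, lost without any 1 of day 9 replicates 2 and 3 and day 0 replicate 1) and Tnip1 (log2 0.66, edgeR adjusted p = 0.0059). The receptor gene Tlr4 itself was at 161, 156 and 133 CPM at day 9 and at 104, 159 and 166 CPM at day 0, with overlap.

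In metabolism, cholesterol synthesis gave no call among 24 genes and a median of -0.00, but the day 9 libraries disagreed. The summed level of these genes was 1468, 4020 and 1395 CPM at day 9, against 2643, 2164 and 2040 CPM at day 0, so that replicate 2 lay above and the other day 9 libraries below every untreated library. The synthase gene Hmgcs1 was at 139, 429 and 109 CPM at day 9 and at 263, 210 and 207 CPM at day 0. Without day 9 replicate 2, 23 of the 24 differences were negative, with a median of -0.74 and still no call. Of 24 glycolysis genes, 2 were higher (8.33%, against 1.61% of all genes). They were Hk1 (hexokinase, log2 0.80, edgeR adjusted p = 0.025, and 0.52 on the log2 scale without day 9 replicate 2) and Pfkfb3, which makes the activator of phosphofructokinase (log2 0.58, edgeR adjusted p = 0.0124). Hk1 did not pass without day 9 replicate 2, and neither gene passed without day 0 replicate 1. Of 44 genes of lipid uptake and storage, 2 were higher (4.55%, against 1.61% of all genes). They were Angptl4, a lipase inhibitor (log2 0.80, edgeR adjusted p = 0.00413), and Lpcat1, an enzyme of surfactant phospholipid synthesis (log2 1.54, edgeR adjusted p = 0.0098, and 1.07 on the log2 scale without day 9 replicate 2). Lpcat1 did not pass without that library or without day 0 replicate 1. Fatty acid oxidation had 1 of 27 higher, Acaa1a (3.7%, against 1.61% of all genes). The citrate cycle had 1 of 26 lower, Pcx (3.85%, against 1.88%), and the respiratory chain 1 of 45 lower, Ndufa4 (2.22%, against 1.88%). Acaa1a lost the call in each of the 6 fits that left out 1 library of either group. Pcx and Ndufa4 both lost it without day 0 replicate 1 and without day 9 replicate 1 or 3.

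Among the remaining lists, 2 of 43 scavenger and lectin receptor genes were higher (4.65%, against 1.61% of all genes). They were Fcgr2b, the inhibitory Fc receptor (log2 0.83, and 0.52 without day 9 replicate 2), and Clec12a, an inhibitory lectin (log2 1.30, and 1.01 without it). Of 26 immediate early and heat shock genes, 2 were lower (7.69%, against 1.88% of all genes), Hsp90aa1 and Hspd1. Fcgr2b, Clec12a, Hsp90aa1 and Hspd1 all lost the call without day 9 replicate 2, and also without day 0 replicate 1. Hspd1 lost it in each of the 6 fits that left out 1 library of either group. Hsp90aa1 kept it only in the fit without day 9 replicate 3. No gene passed in the lists of lysosome (41 tested), ribosome and translation (40), apoptosis (33), the unfolded protein response (25), efferocytosis (23) or sex-linked genes (4). Marker lists of T and NK cells (23), dendritic cells (13), red cells and platelets (7), endothelium and stroma (7), B and plasma cells (3) and eosinophils, basophils and mast cells (2) had no call either. The neutrophil list had 1 of 17 higher, Lcn2 (5.88%, against 1.61% of all genes).

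**Figure D5:**
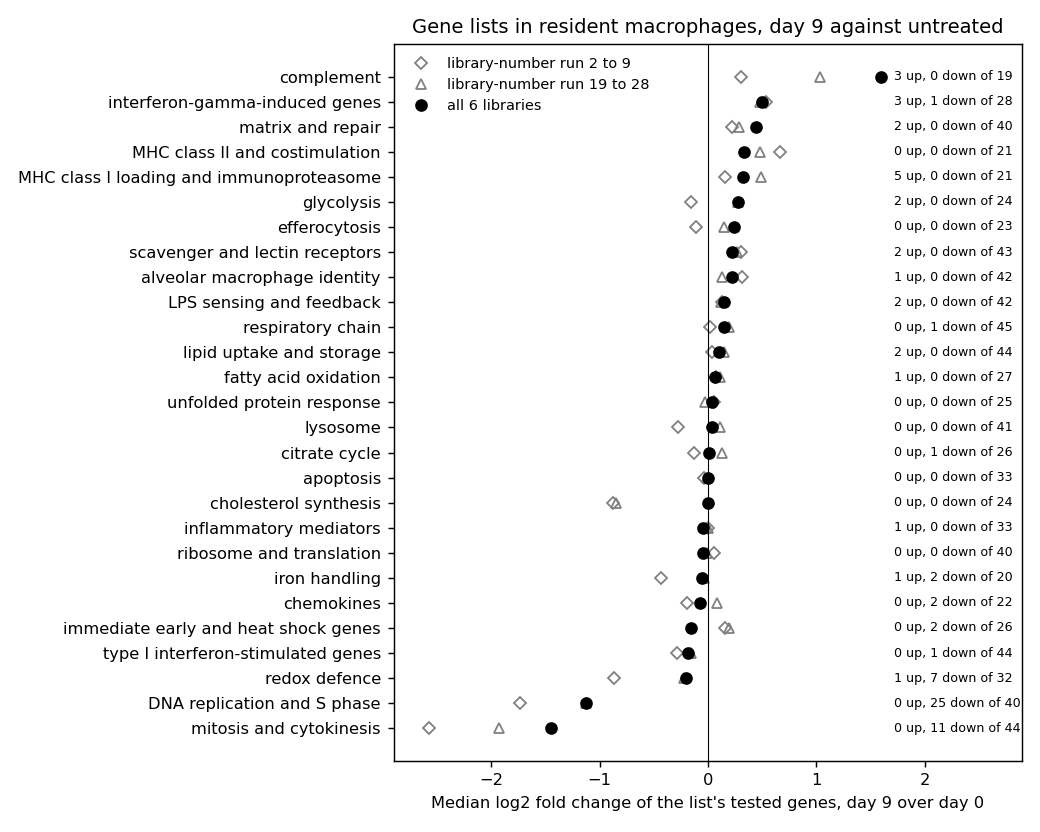
Median log2 fold change, day 9 over day 0, of each list's tested genes (horizontal axis) in all 6 libraries (filled circles) and in the 2 single pairs of libraries that share a run of library numbers (open diamonds, replicate 1 of each group; open triangles, day 9 replicate 3 against day 0 replicate 2), with counts of called genes at the right. The 2 cell division lists lie far to the left in all 3 estimates, and cholesterol synthesis is near 0 in all 6 libraries but at -0.88 and -0.85 in the pairs.

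The header numbers of the libraries fall into runs whose meaning is not given, and day 9 replicate 2 was the one library of the 6 in the run 12 to 18. Within the run 2 to 9 (replicate 1 of each group) the S phase and mitosis medians were -1.73 and -2.57, and within the run 19 to 28 (day 9 replicate 3 and day 0 replicate 2) they were -1.13 and -1.93. The class I median was 0.15 and 0.49 in these pairs, the complement median 0.30 and 1.03 and the redox median -0.86 and -0.22. Each pair is 1 library against 1 and has no test.

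Set against the other days of the resident course, day 9 differed most from day 3. Between day 9 and day 3, 3284 genes passed (24.1%), 1447 higher (10.6%) and 1837 lower (13.5%) at day 9, and 1960 passed without day 3 replicate 3. In the S phase list 39 of 40 genes and in the mitosis list 42 of 44 were lower at day 9 than at day 3. Mki67 averaged 245 ± 33.8 CPM at day 0, 524 ± 19.6 at day 3, 104 ± 22.9 at day 6, 87.8 ± 58.0 at day 9 and 147 ± 19.4 at day 12 (SD, n = 3 each). C3 averaged 449 ± 27.1 CPM at day 0, 2872 ± 83.9 at day 3, 1419 ± 165 at day 6, 833 ± 76.6 at day 9 and 770.2 ± 60.7 at day 12. Day 9 was lower than day 3 for both genes (log2 -2.58 and -1.79, edgeR adjusted p = 0.000158 and 3.11e-07). Mmp14 averaged 2.58 ± 1.75 CPM at day 0, 359 ± 60.6 at day 3, 167 ± 29.9 at day 6, 116 ± 86.4 at day 9 and 87.9 ± 66.0 at day 12. Gpr35 was instead higher at day 9 than at day 3 (log2 0.61, edgeR adjusted p = 0.00449), with means of 16.1 ± 1.82 CPM at day 0, 27 ± 3.62 at day 3, 45.5 ± 2.88 at day 6, 41.4 ± 9.44 at day 9 and 50.6 ± 4.16 at day 12. Tfrc averaged 25.4 ± 3.52 CPM at day 0, 23 ± 2.63 at day 3, 7.59 ± 0.386 at day 6, 6.86 ± 1.63 at day 9 and 7.66 ± 0.334 at day 12, and day 9 was below day 3 (log2 -1.75, edgeR adjusted p = 0.00306).

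No gene passed between day 9 and day 6 by edgeR, with 537 at an unadjusted p under 0.05 (3.95% of those tested), and DESeq2 called 16. Between day 9 and day 12, 3 genes passed (0.0221%), all lower at day 9, and they are named after their values were seen. None passed without day 9 replicate 1, day 9 replicate 3 or day 12 replicate 3, and 1 passed without day 12 replicate 2. Fcho1, a factor of clathrin-coated pits, was at 3.72, 3.38 and 4.24 CPM at day 9 and at 7.58, 8.61 and 9.01 CPM at day 12. Gypc, a membrane skeleton glycoprotein gene, was at 0.063, 0.464 and 0.0581 CPM at day 9 and at 1.66, 1.62 and 2.24 CPM at day 12. Etv1, an ETS transcription factor gene, had no count at day 9 and 0.382, 0.441 and 0.56 CPM at day 12. Their means in recruited day 9 cells were 43.5, 30.8 and 4.64 CPM. A gene that misses the threshold between days is not thereby shown to be equal.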

How the data were processed

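Polyadenylated RNA of sorted cells was sequenced on an Ion Proton after a modified stranded kit, per the labels' protocols. The authors deposited raw whole-number counts for each Ensembl gene in each library, with no scaling. The submitters' processing notes name the build mm10 and the tools R 3.1.0, DESeq2 1.4.5, HTSeq 0.6.0 and STAR 2.4.0a. Neither the strand option nor the release of the annotation was found in the labels, so reads of a gene and of a gene on the opposite strand cannot be told apart. Reads not assigned to a gene, counted in a second table, stayed out of the tests and were 6.77% to 12.7% at day 9 and 9.16% to 11.2% at day 0.

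From the counts, genes were kept by filterByExpr (minimum count 10, minimum total 15) and fitted in R 4.3.3 with edgeR 4.0.16. Robust dispersions, TMM scaling and 1 mean per group over all 27 libraries left 18 residual degrees of freedom. The quasi-likelihood F test is two-sided, p-values were adjusted by Benjamini-Hochberg over all genes tested, and the threshold was 0.05. Day 9 was set against day 0, and against days 3, 6 and 12. An exact permutation test of 3 against 3 libraries cannot go below 0.1 and was not used for single genes. The fit was tested on simulated data.

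Symbols and positions came from GENCODE M21 (GRCm38), which matched 36345 of 38124 genes. Named genes were up to 3 per list that passed with groups apart, the 15 most raised and 15 most lowered of at least 20 CPM, a fixed panel of 34, and others picked after their values were seen, among them the redox genes, Cdc6, Dtl, Pcna, Mcm2, Cdk1, H2-K1, H2-M3, Gbp3, Gpr35, Cat and Ncf1. The members and the lists were chosen with earlier results of these data known. Same-numbered libraries of day 9 and day 0 did not deviate together (r = -0.07, -0.15 and 0.09, across genes), so the numbers were not taken as pairs of these groups. Resident and recruited libraries of the same day and number had a consensus correlation of 0.337 in limma-voom. The main fit did not model it. Some genes that met the naming rule are not reported here.

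The alternatives were other scalings and filters, DESeq2 1.42.0, limma-voom 3.58.1, fewer libraries, the replicate number or the run of library numbers as a term, and leaving out single libraries.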

Additional observations from a re-analysis of the deposited data

Results flagged for a closer look

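Resident cells of day 9 and day 3 differed in their distance from the same untreated libraries in 3284 genes by edgeR's quasi-likelihood test of day 9 against day 3. In that test 39 of the 40 S phase genes and 42 of the 44 mitosis genes were lower at day 9. Against day 12, 3 genes differed: Fcho1 (log2 -1.15), Gypc (log2 -3.24) and Etv1 (log2 -5.80). Etv1 had no count at day 9, so its fitted value depends on the prior count and is no bound. Groups of 3 libraries are too small for a test of single outlying libraries.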

How the results depend on the processing

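For day 9 against day 0, main counts were 474 genes, 219 higher and 255 lower. DESeq2 gave 813, 406 higher and 407 lower, with 16 genes against day 6, 7 against day 12 and 19 mitosis genes. The 15 resident libraries alone gave 740 (331 and 409), 23 mitosis genes, 1 gene against day 6 and 0 against day 12. The 6 libraries of the groups alone gave 122 (65 and 57), with 5 S phase, 3 mitosis and 0 redox genes, and 0 against day 12. A term for the run of header numbers gave 1076 (476 and 600), 40 mitosis and 11 redox genes and 36 against day 6. Library size alone gave 457 lower, 20 mitosis genes and 1 against day 6. No filter on low counts gave 165 lower, 6 mitosis and 4 redox genes, with 23847 genes tested. Leaving out day 9 replicate 2 and day 0 replicate 1 together, chosen after seeing the data, gave 193 (65 and 128), 15 S phase genes, 1 redox and 3 class I genes.

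With the replicate number as a replicate block there were 469 genes, and 4 redox genes in place of 7. Limma-voom with day and number as the block gave 35 mitosis genes, 1 gene against day 6 and 0 against day 12.

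Leaving out 1 library at a time gave 167 to 405 genes (100 to 191 higher, 67 to 292 lower), 8 to 30 S phase, 1 to 26 mitosis, 1 to 7 redox, 0 cholesterol and 2 to 5 class I genes. Against day 3 it gave 1960 to 3333, against day 6 0 to 1 and against day 12 0 to 2. The cause of these moves was not tested. No call of a named gene reversed its sign. Of the values of named genes under the alternatives, 350 lost the call, 23 gained one and 1670 kept their side.

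Groups of 3 libraries and 18 residual degrees of freedom limit small changes, and genes of a few CPM rest on few reads.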
